A study of Homo sapiens with 8 samples.

Results

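The genes described here encode BET proteins and regulators of the elongation kinase P-TEFb, 7 genes (BRD2, BRD3, HEXIM1, LARP7, CDK9, CCNT1 and CCNT2) out of 18955 in a single-cell RNA table of SUM159 cells. They were chosen by name as proteins that the BET inhibitor JQ1 binds or as parts and regulators of the kinase complex that BET proteins recruit. SUM159 is an established human triple-negative breast cancer line. Its cells carried a lentiviral DNA barcode library and, apart from the pre-treatment cells, were passaged in vehicle or drug for up to 18 passages. The 8 libraries, named as in the labels except where a drug name is spelled out, were pre-treatment cells, cells in DMSO vehicle, cells in paclitaxel (0.6 nM), cells in palbociclib (160 nM), cells in JQ1 (100 nM, libraries JQ1-A and JQ1-B), cells in JQ1 with paclitaxel and cells in JQ1 with palbociclib at the same doses. JQ1-A, DMSO, paclitaxel and JQ1+paclitaxel came from 1 experiment. JQ1-B, palbociclib and JQ1+palbociclib came from another, which had no vehicle library. Each library of passaged cells mixed cells of the replicate cultures of its treatment, 3 by plan, although a JQ1+palbociclib culture had died out. Cultures within a library were therefore not told apart, and the spread below is that between libraries.

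BET proteins hold acetylated histone tails through paired bromodomains, and JQ1 fills the pocket of these bromodomains. P-TEFb is the pair of the kinase CDK9 with cyclin T1 (CCNT1) or cyclin T2 (CCNT2), and it releases paused RNA polymerase II into elongation by phosphorylating the polymerase and its pausing factors. Much of the P-TEFb of a cell is held inactive on the 7SK small nuclear RNA, where HEXIM1 blocks the kinase and LARP7 binds and stabilises the RNA. A rise of HEXIM1 RNA is widely used as a pharmacodynamic sign of BET inhibition. Paclitaxel stabilises microtubules and palbociclib blocks the kinases CDK4 and CDK6.

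The libraries held 459 to 1024 cells and 10621159 to 24240835 UMIs, which count captured RNA molecules. Mesenchymal VIM lay at 3279 to 4502 CPM, the UMIs of a gene scaled to a common library total, in the 8 libraries, whereas the receptors ESR1 and PGR had 7 and 4 UMIs in all of them. The marker of leukocytes PTPRC had 16 UMIs. Of epithelial genes, EPCAM had 30 UMIs, but the keratin KRT18 lay at 312.9 to 668.7 CPM. There were 13 cell barcodes present in 2 libraries, 26 cells of 5738. Median mitochondrial shares were 3.72% to 3.96% in pre-treatment, DMSO and paclitaxel cells and 4.69% to 7.18% in the other libraries. All 7 genes passed the filter on low counts, at least 5 CPM in at least 2 libraries, which kept 9288 genes.

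HEXIM1, BRD2 and CCNT1 rose with JQ1, the other 4 genes did not pass the test, and the 7 genes passed no test for palbociclib or paclitaxel. The JQ1 difference was estimated from all 8 libraries, 4 with and 4 without JQ1, with palbociclib and paclitaxel as additive terms (edgeR quasi-likelihood test, p adjusted over all 9288 genes). By that test 37.6% of all genes were called for JQ1, 17.8% higher and 19.7% lower. The count of 3 called of 7 was thus close to the share of all genes, and the account below rests on single genes. In the direction called, 3 of 7 were higher against 17.8% of all genes and 0 of 7 lower against 19.7%.

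**Figure D1:**
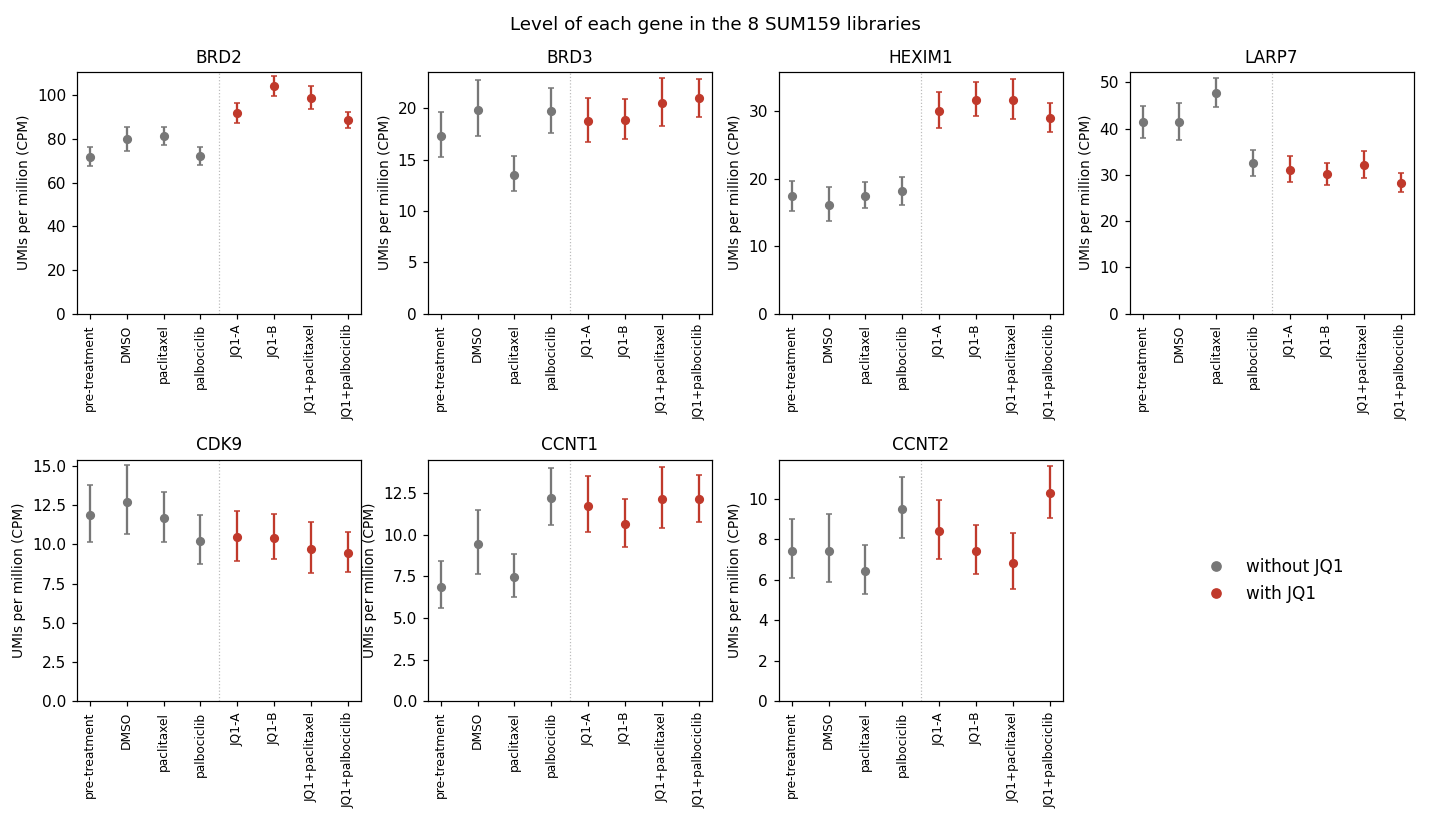
Level of each gene in each library, in CPM on a linear axis from 0, grey for the 4 libraries without JQ1 and red for the 4 with JQ1. Bars are exact 95% Poisson intervals and cover counting error only. HEXIM1 sits at 29.0 to 31.7 CPM with JQ1 and at 16.1 to 18.1 without, and the palbociclib library lies with the JQ1 libraries for LARP7 and CCNT1.

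HEXIM1 encodes the protein that inhibits P-TEFb on 7SK. It is a gene of 1 exon at chr17:43225842-43229466 on the plus strand of GRCh37 (hg19), the build of the counts. Its level was 17.4 CPM in pre-treatment cells, 16.1 in DMSO, 17.5 in paclitaxel and 18.1 in palbociclib. In the libraries with JQ1 it was 30.1 CPM in JQ1-A, 31.7 in JQ1-B, 31.7 in JQ1+paclitaxel and 29.0 in JQ1+palbociclib. The groups did not overlap, and within each group the libraries were nearly level whatever the partner drug. The mean was 30.6 ± 1.35 CPM with JQ1 and 17.3 ± 0.85 without (SD over 4 libraries of differing treatments). The log2 fold change for JQ1 was 1.02 ± 0.11 (SE, adjusted p = 0.00104). Of all 9288 genes, 229 had a higher fold change. Among the genes called higher, 86.8% rose by less than HEXIM1. In the paclitaxel experiment 30.1 and 31.7 CPM stood against 16.1 and 17.5, and in the palbociclib experiment 31.7 and 29.0 stood against 18.1.

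BRD2, a BET protein expressed in most tissues, lies at chr6:32936371-32949282 (GRCh37, plus strand, 13 exons in the canonical transcript). Without JQ1 its level was 71.8 CPM in pre-treatment cells, 79.9 in DMSO, 81.2 in paclitaxel and 72.1 in palbociclib. With JQ1 it was 91.8 CPM in JQ1-A, 104.2 in JQ1-B, 99.0 in JQ1+paclitaxel and 88.7 in JQ1+palbociclib. Every library with JQ1 was above every library without. The distance was smaller than for HEXIM1, since 88.7 CPM in JQ1+palbociclib was not far above 81.2 in paclitaxel. The log2 fold change for JQ1 was 0.53 ± 0.09 (SE, adjusted p = 0.00493). For every gene the test corrected library totals for composition (TMM scaling), which the CPM listed by library do not. With library totals alone the fold change of BRD2 was 0.33 (adjusted p = 0.0289). With TMM scaling and the experiment as a further term it was 0.45 with an adjusted p of 0.0962, so the call was lost there while the direction held. Reads on the same strand may be split with an unnamed long non-coding RNA that overlaps BRD2 in the annotation.

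CCNT1, the main cyclin partner of CDK9, lies at chr12:49082241-49110781 (GRCh37, minus strand, 9 exons). Without JQ1 it had 6.88 CPM in pre-treatment cells, 9.42 in DMSO, 7.48 in paclitaxel and 12.2 in palbociclib. With JQ1 it had 11.7 CPM in JQ1-A, 10.6 in JQ1-B, 12.1 in JQ1+paclitaxel and 12.1 in JQ1+palbociclib. The groups overlapped, because the palbociclib library without JQ1 was as high as any library with it. The log2 fold change for JQ1 was 0.59 ± 0.18 (SE, adjusted p = 0.033). The SE was the largest of the 7 genes, and CCNT1 kept its call in 8 of 21 alternative analyses. It lost the call without pre-treatment (0.49), DMSO (0.66), paclitaxel (0.46), JQ1-A (0.54), JQ1-B (0.61) or JQ1+paclitaxel (0.46). Leaving out paclitaxel or JQ1+paclitaxel amounts to the same comparison, since the paclitaxel term then fits the library that remains. The libraries held 97 to 294 UMIs of it.

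The other BET gene described, BRD3 (chr9:136895427-136933657, GRCh37, minus strand), had 17.3 CPM in pre-treatment cells, 19.9 in DMSO, 13.5 in paclitaxel and 19.7 in palbociclib. With JQ1 it had 18.8 CPM in JQ1-A, 18.9 in JQ1-B, 20.5 in JQ1+paclitaxel and 21.0 in JQ1+palbociclib. The lowest library was paclitaxel without JQ1, and the groups overlapped. The log2 fold change for JQ1 was 0.38 ± 0.14 (SE, adjusted p = 0.0624). After TMM scaling, which corrects the library totals for composition, the groups no longer overlapped: the lowest library with JQ1 was at 19.9 CPM (JQ1-B) and the highest without at 19.7 (palbociclib). Without the palbociclib library the fold change was 0.49 and the gene was called, as it was without JQ1+palbociclib, at 0.46. These settings amount to the same comparison. In each, the palbociclib term fits the palbociclib library that remains, and JQ1 is estimated from the libraries without palbociclib.

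LARP7, the protein that binds the end of the 7SK RNA, lies at chr4:113558233-113578852 (GRCh37, plus strand). Its level without JQ1 was 41.3 CPM in pre-treatment cells, 41.4 in DMSO, 47.8 in paclitaxel and 32.5 in palbociclib. With JQ1 it was 31.1 CPM in JQ1-A, 30.1 in JQ1-B, 32.1 in JQ1+paclitaxel and 28.3 in JQ1+palbociclib. All libraries with JQ1 were below all without, but only just below palbociclib. The log2 fold change for JQ1 was -0.21 ± 0.09 (SE, adjusted p = 0.0927). The value depended on the scaling. With library totals alone it was -0.41 with an adjusted p of 0.0172, and after TMM scaling the groups overlapped, with palbociclib at 32.5 CPM inside the range of 29.3 to 35.7 with JQ1. Library totals moved the median JQ1 fold change of all genes from -0.003 to -0.198, and of the genes then called 22.9% were higher, against 47.4% with TMM. Relative to that median, LARP7 lay at a similar distance on both scales.

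CDK9, the kinase of P-TEFb, lies at chr9:130547958-130553071 (GRCh37, plus strand, 7 exons). It had 11.8 CPM in pre-treatment cells, 12.7 in DMSO, 11.7 in paclitaxel and 10.2 in palbociclib. With JQ1 it had 10.4 CPM in JQ1-A, 10.4 in JQ1-B, 9.69 in JQ1+paclitaxel and 9.45 in JQ1+palbociclib. Its libraries overlapped, and the log2 fold change for JQ1 was -0.02 ± 0.11 (SE, adjusted p = 0.916). CCNT2, the second cyclin of the kinase (chr2:135675805-135716912, GRCh37, plus strand), had 7.45 CPM in pre-treatment cells, 7.44 in DMSO, 6.44 in paclitaxel and 9.48 in palbociclib. With JQ1 it had 8.40 CPM in JQ1-A, 7.44 in JQ1-B, 6.83 in JQ1+paclitaxel and 10.3 in JQ1+palbociclib. Its highest libraries were the ones with palbociclib, with or without JQ1. The log2 fold change of CCNT2 for JQ1 was 0.29 ± 0.13 (SE, adjusted p = 0.105).

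The share of all genes that moved without overlap depended on the scaling as well. On CPM from library totals, 5.45% of genes lay above in every library with JQ1 and 22.7% lay below. On TMM-scaled CPM the shares were 11.7% and 12.8%. HEXIM1 and BRD2 were above on both scales.

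Because HEXIM1, BRD2 and CCNT1 were the genes called, the 250 bases before their RefSeq start sites are given here (GRCh38.p14, each written on the strand of the gene). The HEXIM1 window is chr17:45148225-45148474 on the plus strand. The BRD2 window is chr6:32968344-32968593 on the plus strand, at the most upstream of 4 starts in the table. The CCNT1 window is chr12:48716708-48716957 on the minus strand, at the more upstream of 2 starts. Capitals mark matches on either strand to the TATA box TATAAA, the CCAAT box CCAAT, the GC box GGGCGG, the E box CACGTG and the cyclic-AMP response half-site TGACG.
HEXIM1: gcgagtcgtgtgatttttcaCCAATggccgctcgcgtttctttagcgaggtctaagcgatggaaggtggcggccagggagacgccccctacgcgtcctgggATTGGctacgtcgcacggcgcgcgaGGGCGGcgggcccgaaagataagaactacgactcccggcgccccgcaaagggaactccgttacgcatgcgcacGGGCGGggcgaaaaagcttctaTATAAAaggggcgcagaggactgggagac
BRD2: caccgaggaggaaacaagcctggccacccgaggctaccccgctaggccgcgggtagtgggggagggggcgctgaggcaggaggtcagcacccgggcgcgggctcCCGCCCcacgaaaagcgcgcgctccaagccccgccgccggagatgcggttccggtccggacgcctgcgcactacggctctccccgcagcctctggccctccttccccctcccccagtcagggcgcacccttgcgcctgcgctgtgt
CCNT1: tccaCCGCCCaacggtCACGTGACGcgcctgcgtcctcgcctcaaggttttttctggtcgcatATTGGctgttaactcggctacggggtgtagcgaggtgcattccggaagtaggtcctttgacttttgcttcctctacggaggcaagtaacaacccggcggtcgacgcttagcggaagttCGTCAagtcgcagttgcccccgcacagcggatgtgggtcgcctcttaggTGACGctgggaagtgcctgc

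HEXIM1 held a TATAAA at -29 from the start, which 10.7% of the 35116 promoter windows of the same length held on either strand. It also had 2 CCAAT boxes (32.0% of windows held 1 or more) and 2 GC boxes (42.6%). The BRD2 window had 1 GC box and none of the other motifs. The CCNT1 window had 1 CCAAT box, 1 GC box, 1 E box (6.34% of windows) and 3 half-sites (21.2%), of which 1 overlapped the E box. The GC content was 62.4% in the HEXIM1 window, 74.0% in BRD2 and 59.2% in CCNT1, beside a median of 58.0% over all windows. No motif searched was present in all 3 windows apart from the GC box. These matches describe the letters of the windows only.

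JQ1-A, JQ1+paclitaxel and JQ1+palbociclib could each be set beside 1 library of the same experiment that lacked JQ1 alone, whereas JQ1-B had no such partner. Such a pair has no replicate, and its interval covers counting error only. The ratios are of CPM from library totals, where the median JQ1 fold change of all genes was -0.198 on the log2 scale. For HEXIM1 the ratio of CPM was 1.87 (95% interval 1.57 to 2.24) for JQ1-A over DMSO. It was 1.81 (1.57 to 2.1) for JQ1+paclitaxel over paclitaxel and 1.60 (1.39 to 1.84) for JQ1+palbociclib over palbociclib. The pairs of like treatment gave the scale of a difference between libraries: JQ1-B over JQ1-A was 1.05 (0.936 to 1.19) and DMSO over pre-treatment 0.927 (0.758 to 1.13). All of the HEXIM1 ratios for JQ1 were outside both.

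For BRD2 the ratios were 1.15 (1.06 to 1.25) over DMSO, 1.22 (1.13 to 1.31) over paclitaxel and 1.23 (1.15 to 1.32) over palbociclib. The pairs of like treatment gave BRD2 ratios of 1.13 (1.06 to 1.21) for JQ1-B over JQ1-A and 1.11 (1.02 to 1.22) for DMSO over pre-treatment. A single BRD2 pair was thus not far beyond the difference between libraries of like treatment. CCNT1 had 1.25 (0.974 to 1.61) over DMSO, 1.62 (1.29 to 2.04) over paclitaxel and 0.994 (0.828 to 1.19) over palbociclib. DMSO over pre-treatment gave CCNT1 1.37 (1.02 to 1.83). LARP7 had 0.752 (0.66 to 0.856) over DMSO, 0.673 (0.60 to 0.754) over paclitaxel and 0.871 (0.777 to 0.977) over palbociclib. TMM scaling brought its levels closer, 33.6 CPM in JQ1-A beside 37.6 in DMSO and 29.3 in JQ1+palbociclib beside 32.5 in palbociclib. In JQ1+paclitaxel LARP7 was then at 35.7 CPM, beside 43.8 in paclitaxel. The JQ1 test did not call LARP7. BRD3 had 1.51 (1.27 to 1.80) over paclitaxel but 0.946 (0.791 to 1.13) over DMSO and 1.06 (0.924 to 1.23) over palbociclib. With TMM scaling BRD3 was higher in JQ1-A (20.3 CPM) than in DMSO (18.0).

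Ratios of UMIs of 2 of the genes within a library do not depend on how libraries are scaled. HEXIM1 to CDK9 was 1.27 to 1.78 in the libraries without JQ1 and 2.88 to 3.27 with JQ1. HEXIM1 to LARP7 was 0.366 to 0.558 without and 0.966 to 1.05 with. Both ratios kept the groups apart, with palbociclib the highest library without JQ1 in each. BRD2 to BRD3 was 3.66 to 6.00 without JQ1 and 4.23 to 5.52 with, so that the groups overlapped there. These pairs of genes were chosen after their values were seen.

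**Figure D2:**
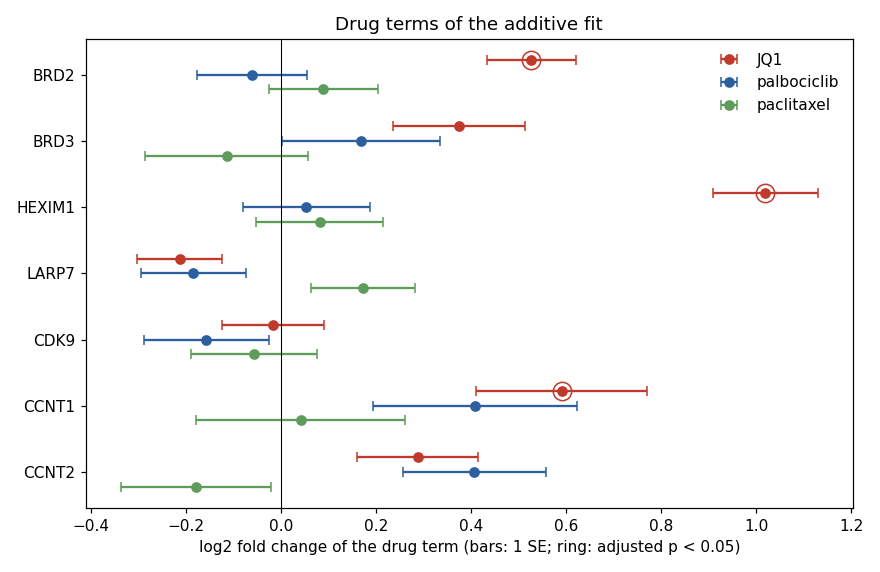
Log2 fold change of each gene for JQ1 (red), palbociclib (blue) and paclitaxel (green) in the additive fit, with bars of 1 SE and a ring around terms with an adjusted p under 0.05. Rings are present for JQ1 at HEXIM1 (1.02), CCNT1 (0.59) and BRD2 (0.53), and the palbociclib and paclitaxel terms carry none.

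For palbociclib 0.28% of all genes were called and for paclitaxel 0%, although 2056 and 395 genes had an unadjusted p under 0.05 in the same fit. Of the 7 genes 0 were called for either drug. The largest palbociclib estimates were those of both cyclins, 0.41 ± 0.15 for CCNT2 (adjusted p = 0.170) and 0.41 ± 0.21 for CCNT1 (adjusted p = 0.297). The palbociclib estimate of HEXIM1 was 0.05 ± 0.13 and that of BRD2 -0.06 ± 0.12. The largest paclitaxel estimate was that of CCNT2, -0.18 ± 0.16 (adjusted p = 0.894). The paclitaxel estimate of LARP7 was 0.17 ± 0.11.

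Whether the JQ1 difference depended on the partner was tested with interaction terms, which left 2 residual degrees of freedom. They called 0.0108% of all genes for palbociclib and 0.388% for paclitaxel, where 1580 and 1577 genes had an unadjusted p under 0.05. None of the 7 genes was called. The estimates farthest from 0 were -0.66 ± 0.31 for CCNT1 with palbociclib (adjusted p = 0.311) and 0.62 ± 0.24 for BRD3 with paclitaxel (adjusted p = 0.242). HEXIM1 had -0.38 ± 0.22 with palbociclib (adjusted p = 0.400) and 0.02 ± 0.22 with paclitaxel.

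The share of cells with a UMI was taken after each cell of the study's filter was thinned to 10000 UMIs, so that depth was equal. HEXIM1 was seen in 16.1% of pre-treatment cells (94 of 583, exact binomial interval 13.2% to 19.4%), 14.4% in DMSO, 16.4% in paclitaxel and 16.6% in palbociclib. With JQ1 it was seen in 26.9% of JQ1-A cells (175 of 650, interval 23.6% to 30.5%), 26.8% in JQ1-B, 26.9% in JQ1+paclitaxel and 26.0% in JQ1+palbociclib. The shares with JQ1 lay within 1 percentage point of each other and above all those without. Over all genes, 4.38% lay above without overlap in this measure and 18.9% below.

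BRD2 was seen in 51.2% to 53.9% of cells without JQ1 and in 56.7% to 62.4% with it, again without overlap. LARP7 was seen in 24.4% to 26.4% of cells with JQ1. Without JQ1 it was seen in 25.4% in palbociclib, 32.9% in pre-treatment cells, 33.03% in DMSO and 38.8% in paclitaxel, so the groups overlapped through palbociclib alone. The shares of BRD3 (16.3% to 20.7% with JQ1, 13.4% to 18.1% without), CCNT1 (10.4% to 10.8% and 7.03% to 10.6%), CDK9 (9.24% to 10.4% and 10.1% to 11.7%) and CCNT2 (5.85% to 8.44% and 6.29% to 10.4%) overlapped. Unthinned, CDK9 was lower without overlap, 19.0% to 20.9% with JQ1 and 21.7% to 23.4% without, but the share of all genes was not computed there. Unthinned, HEXIM1 was seen in 45.7% to 48.5% of cells with JQ1 and in 30.8% to 34.0% without. All cells were of the same line, so no cell type lacking these genes was at hand to measure free RNA.

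**Figure D3:**
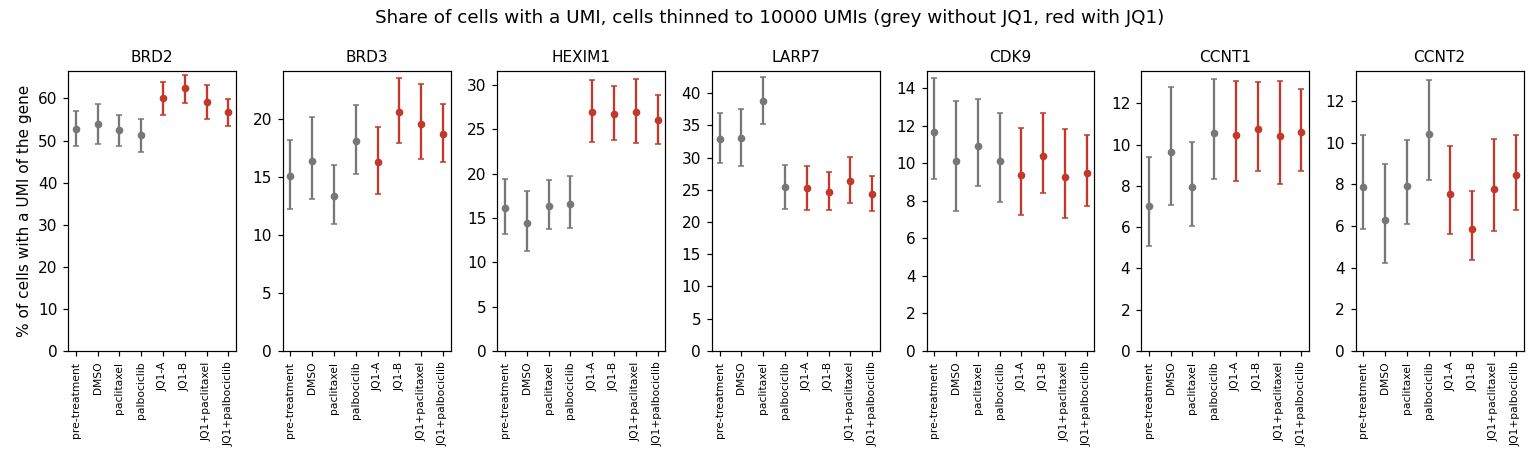
Share of cells with at least 1 UMI of each gene, in percent on a linear axis from 0, for cells thinned to 10000 UMIs in the 8 libraries (grey without JQ1, red with JQ1). Bars are exact 95% binomial intervals. HEXIM1 goes from 14.4% to 16.6% without JQ1 to 26.0% to 26.9% with it, whereas CDK9 stays between 9.24% and 11.7%.

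The spread of HEXIM1 UMIs over cells was set beside that of random counts. If UMIs fell on cells at random at the mean of the library, 28.7% of JQ1-A cells would hold a HEXIM1 UMI, beside the 26.9% seen, and 16.0% of paclitaxel cells, beside 16.4%. Cells with 2 or more HEXIM1 UMIs were 3.81% to 5.69% with JQ1 and 0.67% to 2.23% without. The variation between cells was given as the squared coefficient of variation less its counting noise. It was 0.127 to 0.456 for HEXIM1 with JQ1 and -0.391 to 0.334 without. In JQ1-A it was 0.456, beside a median of 0.218 for genes of like mean, and in JQ1+paclitaxel 0.372 beside 0.193. It lay between the percentiles 39.1 and 81.0 of such genes in the libraries with JQ1 and between 8.3 and 62.5 without, which overlapped. For BRD2, which had the most UMIs, it was -0.018 to 0.222 over the 8 libraries, where the median of like genes was 0.117 to 0.181. For the low genes it scattered on both sides of 0, from -0.263 to 1.07 for CDK9, -0.519 to 0.234 for CCNT1 and -0.461 to 1.01 for CCNT2.

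The libraries differed in cell cycle phase, called from Seurat's gene lists, which contain none of the 7 genes. Cells called G1 were 18.0% in pre-treatment, 18.7% in DMSO, 2.73% in paclitaxel (20 cells) and 57.5% in palbociclib. In the libraries with JQ1 they were 40.3% to 47.9%. These calls scored all libraries together. With each library scored by itself, G1 cells were 17.5% in paclitaxel (128 cells), 19.1% in DMSO and 43.0% in palbociclib. The part of the phase in the differences between libraries was examined by comparing cells of 1 phase.

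Within each phase HEXIM1 and BRD2 remained higher with JQ1 in every library. HEXIM1 in G1 cells was 24.7 to 32.5 CPM with JQ1 and 10.1 to 16.7 without, in S cells 22.4 to 27.1 and 13.7 to 16.5, and in G2/M cells 34.3 to 38.7 and 17.3 to 21.3. BRD2 in G1 cells was 83.7 to 94.97 CPM with JQ1 and 60.9 to 75.8 without, and in G2/M cells 90.8 to 110.2 and 70.9 to 80.6. The lowest G1 values of HEXIM1 and BRD2 came from the 20 G1 cells of paclitaxel, with 4 and 24 UMIs. Scored by itself, that library had 128 G1 cells, with HEXIM1 at 16.9 CPM and BRD2 at 76.0. BRD3 in G2/M cells was 20.2 to 23.6 CPM with JQ1 and 11.7 to 19.2 without, with overlap in G1 and S. CCNT1 showed the same order in G2/M cells, 10.97 to 14.3 against 7.66 to 10.6 CPM. LARP7 in G2/M cells was lower with JQ1, 32.8 to 39.4 against 41.6 to 52.1 CPM, and overlapped in G1 and S. The share of all genes without overlap was not computed within phases, so these orders are given as description.

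The same JQ1 test on G1 cells alone put the JQ1 difference of HEXIM1 at 1.11 on the log2 scale (adjusted p = 0.00388), and on G2/M cells alone at 1.06 (adjusted p = 0.00045). The paclitaxel library entered the G1 test with 20 cells. LARP7 had 0.02 in G1 cells (adjusted p = 0.954) and -0.20 in G2/M cells (adjusted p = 0.157). BRD3 had 0.12 in G1 cells (adjusted p = 0.693) and 0.66 in G2/M cells (adjusted p = 0.0133). Of all genes, 2783 of 9325 were called in G2/M cells, 1290 of them higher, and 1522 of 9449 in G1 cells, 691 of them higher. The difference between phases in the JQ1 effect was not tested.

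Some of the genes differed between phases. In each of 8 libraries LARP7 was higher in G2/M than in G1 cells, by 0.68 ± 0.24 on the log2(CPM + 1) scale (SD, n = 8). HEXIM1 was higher in each of 8 as well, by 0.40 ± 0.25. For both, the two-sided exact sign-flip permutation test over 8 libraries gave p = 0.00781, the smallest it can give, and an adjusted p of 0.0273 over 9196 genes. By that test 29.4% of genes were called higher in G2/M and 7.93% lower. The median difference over all these genes was 0.13, so the typical gene also lay above 0. Without the paclitaxel library, whose G1 cells were few, the means were 0.62 for LARP7 and 0.33 for HEXIM1. With each library scored by itself they were 0.54 ± 0.23 for LARP7 and 0.31 ± 0.18 for HEXIM1, again above 0 in 8 of 8 libraries. The paclitaxel library then went from 1.11 to 0.27 for LARP7 and from 0.91 to 0.18 for HEXIM1, from the highest of the 8 to the lowest for LARP7 and nearly the lowest for HEXIM1. BRD2 differed by 0.19 ± 0.16 (7 of 8 libraries, adjusted p = 0.0566 in the exact test) and CDK9 by 0.42 ± 0.45 (6 of 8, adjusted p = 0.0834 in the exact test). BRD3, CCNT1 and CCNT2 had means of 0.05, 0.06 and -0.01.

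**Figure D4:**
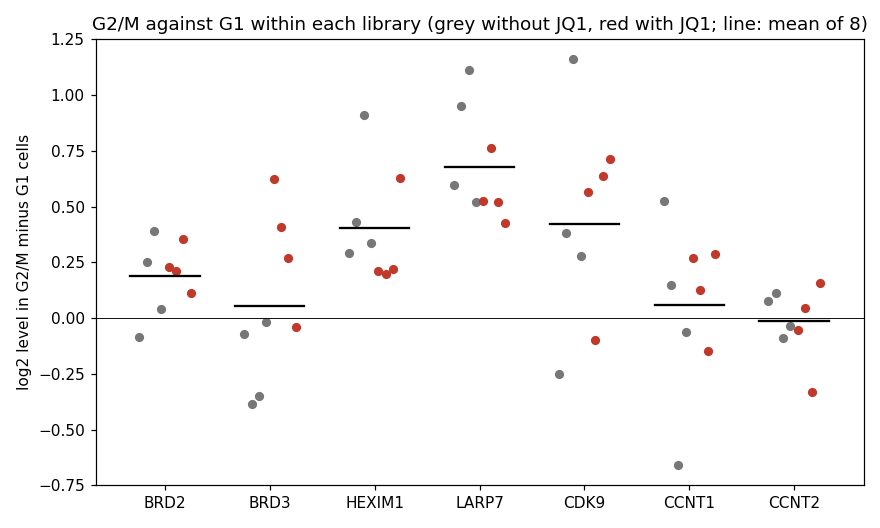
Difference of log2(CPM + 1) between G2/M and G1 cells of each library, by gene, with grey points for libraries without JQ1, red for those with JQ1 and a line at the mean of the 8. LARP7 (0.43 to 1.11) and HEXIM1 (0.20 to 0.91) are above 0 in all 8 libraries, and the highest point of both is paclitaxel, with 20 G1 cells, which falls to 0.27 and 0.18 when each library is scored by itself.

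Beside the 7 genes, 45 tested genes were examined in lists drawn up by function, of elongation factors, other transcription kinases, BET partners and polymerase subunits. JQ1 called 8 of them higher and 7 lower, 15 of 45 beside 37.6% of all genes. Their median log2 fold change was -0.009, beside -0.003 for all genes. On library totals 2 were called higher and 12 lower, beside 865 higher and 2912 lower of all 9288 genes. With the experiment as a further term 0 of them were called, beside 463 of all genes.

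In the 7SK particle, HEXIM2, the paralog of HEXIM1, had 3.52 to 8.70 CPM without JQ1 and 5.07 to 6.62 with it (log2 fold change 0.16 ± 0.27, adjusted p = 0.659). MEPCE, which caps 7SK RNA, had 0.13 ± 0.15 (adjusted p = 0.539). HEXIM1 was the gene of this particle that passed the test. Of the super elongation complex, which joins P-TEFb to further elongation factors, the scaffold AFF4 rose by 0.56 ± 0.13 (adjusted p = 0.0126), and 3 others were not called. AFF4 lay at 27.2 to 49.8 CPM without JQ1 and 40.7 to 53.2 with it, the palbociclib library being the highest without.

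Of the other transcription kinases 2 rose and 2 fell. CDK19, a Mediator kinase, had 0.55 ± 0.18 (adjusted p = 0.047) and its close relative CDK8 -0.53 ± 0.11 (adjusted p = 0.00961). CCNH, the cyclin of the TFIIH kinase, had -0.61 ± 0.11 (adjusted p = 0.00575), from 28.5 to 49.6 CPM without JQ1 to 21.6 to 27.1 with it. CDK13, which phosphorylates the polymerase tail during elongation, had 0.41 ± 0.11 (adjusted p = 0.0229).

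The polymerase subunits went both ways. The largest subunit POLR2A had 0.52 ± 0.15 (adjusted p = 0.0243) and POLR2L 0.46 ± 0.08 (adjusted p = 0.00475). POLR2C had -0.54 ± 0.13 (adjusted p = 0.0129) and POLR2K -0.41 ± 0.12 (adjusted p = 0.0279). JMJD6, an oxygenase that binds the extraterminal domain of BET proteins, had the largest fall of the lists, -0.82 ± 0.20 (adjusted p = 0.0145), from 13.3 to 28.7 CPM without JQ1 to 8.65 to 11.96 with it. These 10 genes kept their direction in all 21 alternatives but not their calls. Calls held in 19 for POLR2L, 18 for CCNH, 16 each for CDK8 and JMJD6 and 15 each for AFF4 and POLR2C. POLR2A and POLR2K were called in 11, CDK13 in 10 and CDK19 in 8. The groups with and without JQ1 overlapped for AFF4, CDK19, CDK8, CDK13, POLR2A and POLR2C. POLR2A was highest in paclitaxel without JQ1, at 24.8 CPM. On library totals AFF4 and POLR2L among the rises had adjusted p of 0.038 and 0.050, and CDK19, POLR2A and CDK13 had 0.132, 0.117 and 0.163.

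**Figure D5:**
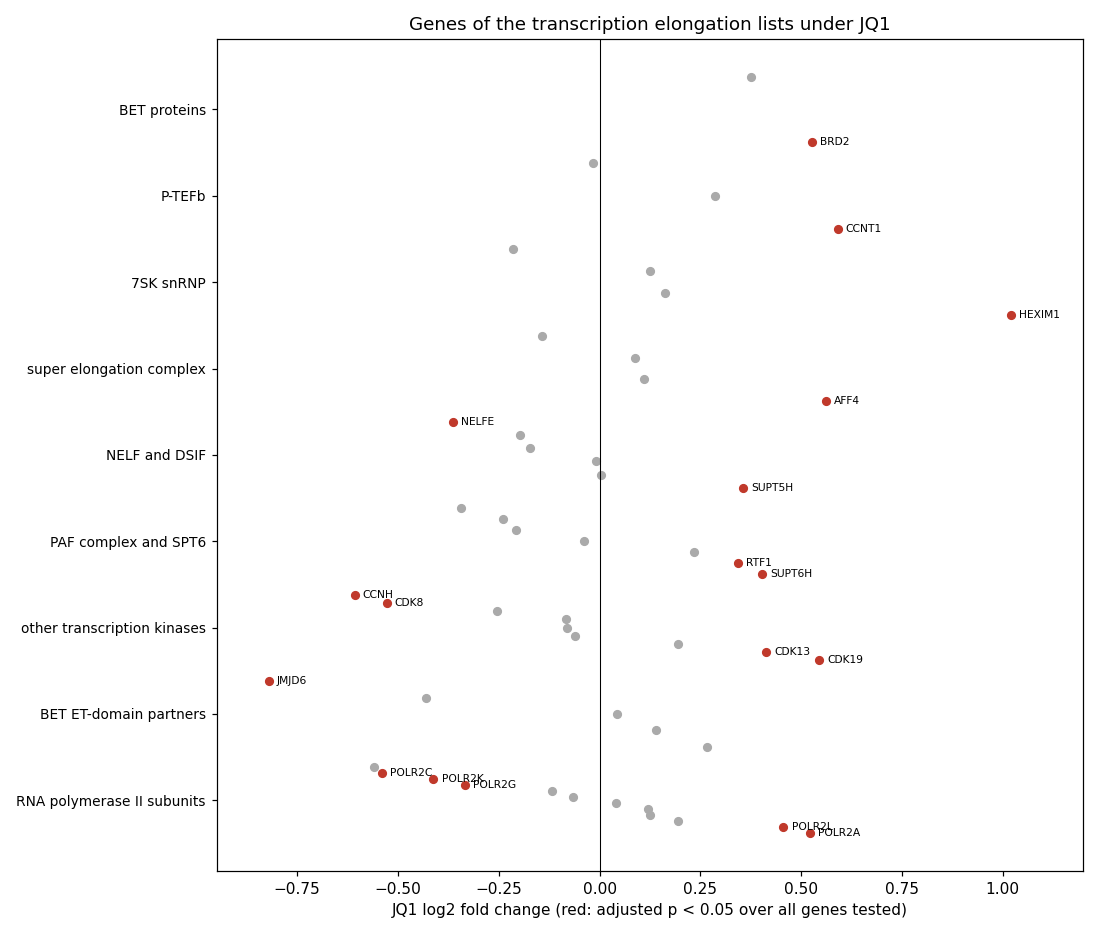
Log2 fold change for JQ1 of the tested genes of each list, the 7 genes included, red with the name where the adjusted p was under 0.05 and grey where not. HEXIM1 (1.02) is farthest to the right and JMJD6 (-0.82) farthest to the left, and the polymerase subunits fall on both sides of 0.

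HEXIM1 and BRD2 had higher JQ1 estimates than nearly all tested genes beside them on the chromosome, a comparison given without a test. Over all tested genes HEXIM1 lay above 97.5%, BRD2 above 87.4% and CCNT1 above 89.8%. Few higher neighbours would thus be met at any place. Of up to 10 tested genes on either side, 20 for each gene, 1 neighbour of HEXIM1 had a higher JQ1 fold change than HEXIM1, and their median was 0.22. Of the neighbours of BRD2, in the major histocompatibility complex region, 0 were called higher and 9 lower, with a median of -0.37, and 1 had a higher estimate than BRD2. Among all tested genes 17.8% were called higher and 19.7% lower. The neighbours of CCNT1 had a median of 0.11, 2 of 20 had a higher estimate than CCNT1 and 1 of 20 was called. LARP7 was in the middle of its neighbours, of which 10 were above it, and their median was -0.18. With 5 genes on either side the median was -0.08 for LARP7, -0.53 for BRD2, 0.21 for HEXIM1 and 0.12 for CCNT1.

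The genes whose levels over the 8 libraries were most like those of HEXIM1 were PHPT1 (Pearson r of log2(CPM + 1) 0.994), ESYT1 (0.971) and TGFB1 (0.969), out of 4431 with a mean of at least 20 CPM. For BRD2 they were AKR7A2 (0.966), ARL6IP1 (0.951) and CS (0.936), and for CCNT1 ASS1 (0.976), ZC3H11A (0.974) and MBTPS1 (0.972). For BRD3 they were GPI (0.978), VPS51 (0.964) and STK16 (0.952), and for CCNT2 ORAI2 (0.984), VMP1 (0.966) and PREX1 (0.965). For CDK9 they were CDC42 (0.990), TUBB (0.984) and COMMD3 (0.982), and for LARP7 C1orf131 (0.999) and KRR1 (0.996). An r above 0.9 was common for LARP7, with 1101 genes, and for CDK9, with 416, but was reached by 51 genes for HEXIM1 and 12 for BRD2. Among the 7 genes, HEXIM1 had r = 0.89 with BRD2 and -0.81 with LARP7, and CDK9 had 0.86 with LARP7. These values describe 8 libraries that share their treatments and scaling.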

How the data were processed

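Single-cell RNA was measured in 8 libraries with 10x Genomics Chromium 3' v2 chemistry. The deposited table holds raw UMI counts, which the authors obtained with Cell Ranger 2.1.0 on hg19, and a second deposited file names the library of each cell. The cells of each library were added up before testing, as single cells do not count as replicates. The 9288 genes with at least 5 CPM in at least 2 libraries were tested with edgeR 4.0.16 (R 4.3.3, TMM, quasi-likelihood, Benjamini-Hochberg, adjusted p under 0.05), with 4 residual degrees of freedom. SEs are approximate, back-calculated from each F statistic. On simulated counts for the JQ1 term, 100% of 200 genes changed by a log2 fold of 1 among 9288 were called, with 6 false calls. The simulation had a fixed dispersion and no difference between experiments or partner drugs. It therefore does not give the recovery of smaller changes in these libraries.

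Shares of cells used the 5575 cells passing the study's filter (2000 genes or more, mitochondrial UMIs of 1 to 15%), thinned to 10000 UMIs (5487 cells, 88 too shallow). Phases were called with scanpy 1.11.5 and the lists of Seurat 5.3.0, and phase sums used all UMIs of those cells. No doublet caller was run, as all cells were of 1 line. Positions of neighbours came from GENCODE v44 lifted to GRCh37, where 8437 of 9288 tested genes were placed by symbol. Named list genes were the 5 largest rises and 5 largest falls among those called, and the genes of like pattern were the 3 with the highest r, of which 1 for LARP7 is not reported here. The genes and lists were chosen with earlier results of these data known. Alternatives were RLE scaling, DESeq2 1.42.0, no count filter, other cell filters, other model terms, matched pairs and leaving out each library. Other BET genes were not analysed here. Intervals cover counting error only.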

Additional observations from a re-analysis of the deposited data

How the results depend on the processing

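HEXIM1 was called under all 21 alternatives, with a log2 fold change of 0.82 to 1.15 and an adjusted p of at most 0.0347. BRD2 kept its direction in all 21 and lost its call in 2, with the experiment as a term (0.45, adjusted p = 0.0962) and over 3 matched library pairs (0.45, adjusted p = 0.0998). CCNT1 kept its direction and lost its call in 13 of 21 (0.40 to 0.82 over all). BRD3 was called in 3 and LARP7 in 1. CDK9, which was not called, changed sign without palbociclib (0.030), without JQ1+palbociclib (0.0015) and in G2/M cells (0.11), with a range of -0.040 to 0.030 over the left-out libraries, and LARP7 in G1 cells (0.022).

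The count of genes called for JQ1, 3488, was 2205 with JQ1 as the only term, 463 with the experiment as a term, 361 over 3 matched pairs and 1522 in G1 cells, and 1760 (without JQ1-A) to 4190 (without palbociclib) when a library was left out. It was 1970 without pre-treatment, 2269 without DMSO and 2032 without JQ1-B. Of the 7 genes, 3 were called, and 1 with the experiment as a term and 1 over matched pairs. Of the 45 list genes 15 were called, and 5 with JQ1 as the only term, 0 with the experiment as a term, 0 over matched pairs, 3 in G1 cells, and 3 (without JQ1-A) to 19 when a library was left out, with 6 without pre-treatment, 9 without DMSO and 8 without JQ1-B. The experiment term and the pairs leave fewer residual degrees of freedom, but the cause was not tested. Both estimate JQ1 from the same 3 pairs, as pre-treatment and JQ1-B add nothing to the JQ1 estimate once the experiment is a term. Leaving out paclitaxel or JQ1+paclitaxel likewise gives the same JQ1 comparison, as does leaving out palbociclib or JQ1+palbociclib. The counts over the alternatives thus hold repeats. The genes without overlap in share of cells, 2 at 10000 UMIs, were 4 at 5000 UMIs, where CCNT1 was higher and LARP7 lower with JQ1. Unthinned they were 3, with CDK9 lower. The share of all genes without overlap was computed at 10000 UMIs alone, so the other counts have no share beside them. The median of neighbours moved from -0.18 to -0.08 for LARP7 and from -0.37 to -0.53 for BRD2 with 5 genes on either side.

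The limits are those of the design. No library repeats a treatment within an experiment, palbociclib and its experiment share all their libraries but JQ1-B, and the G1 cells of paclitaxel were 20 or 128 depending on how phases were scored. The G1, S and G2/M analyses, library totals, TMM-scaled overlap and ratios were chosen after seeing the data. The pairs were matched by experiment and partner drug, since replicate numbers were not shared between treatments in a way that pairs libraries.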
